A study of Mus musculus with 6 samples.

Results

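The BCL2 family was followed in DNT cells that had been stimulated with or without IL-33. The genes described were 10 members chosen by symbol for their role in survival or death, out of 26128 genes in the deposited table. They were the survival genes Bcl2, Bcl2l1, Mcl1 and Bcl2a1b, the BH3-only death genes Bcl2l11, Bik, Bbc3 and Pmaip1, and the effector genes Bax and Bak1. All 10 were in the table, and 9 passed the filter on low counts. Bcl2a1b did not pass it and was not tested.

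DNT cells (CD3+NK1.1-CD4-CD8-) are double negative T cells, here made in culture from CD4+CD25- T cells of C57BL/6 mice with mature dendritic cells of DBA/2 mice and IL-2, and then sorted. All 6 samples received anti-CD3/CD28 beads for 48 h, a stimulus of the T cell receptor and its costimulator. Of these, 3 had no IL-33 and 3 had IL-33 at 50 ng/ml, and RNA was sequenced as 1 library each. IL-33 is a cytokine of the IL-1 family that signals through the receptor ST2. The cells are a converted population in culture and not DNT cells taken from an animal. The sources used here do not tell if replicate libraries stem from different animals or cultures, so p-values measure only the spread between these libraries, which may be technical.

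Proteins of the BCL2 family decide whether the outer membrane of mitochondria stays closed. BAX and BAK, the products of Bax and Bak1, open it and let cytochrome c out, which starts the caspase cascade through APAF1. BCL2, BCL-XL (Bcl2l1), MCL1 and A1 (the Bcl2a1 genes) hold the effectors back, and the BH3-only proteins BIM (Bcl2l11), PUMA (Bbc3), NOXA (Pmaip1) and BIK block these survival proteins or activate the effectors. In T cells, BIM is known as a main driver of death after cytokine withdrawal and at the end of a response, while BCL2 and MCL1 are held up by cytokines. Many of these proteins are also controlled after transcription, which counts of RNA do not show.

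With IL-33, 3 of the 9 tested members passed an adjusted p of 0.05 by the quasi-likelihood test of edgeR, with p-values adjusted by the method of Benjamini and Hochberg. Bcl2l1 and Bbc3 rose 1.22-fold and 1.21-fold, and Bcl2l11 fell to 0.817 of its level without IL-33. Bcl2, Mcl1, Bax, Bak1 and Pmaip1 differed by at most 0.07 on the log2 scale, and Bik was low throughout. The called members were thus 33.3% of those tested, beside 27.5% of all 14671 genes tested, where 13.6% rose and 13.9% fell. A share of this size is near that of all genes. The members' median log2 fold change was 0.05, beside -0.00063 for all genes tested. The groups did not overlap in 4 members (Bcl2l1, Bcl2l11, Bbc3 and Bik), with Bcl2l1 and Bbc3 higher and Bcl2l11 and Bik lower. Among all genes tested 38.9% had groups that did not overlap, 19.4% higher and 19.5% lower.

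No member reached the fold threshold of 1.5 (0.585 on the log2 scale) together with the adjusted p, which 4.87% of all genes tested did (2.47% higher and 2.39% lower). By edgeR, 5 members had an unadjusted p under 0.05 and 0 of them also reached the fold. By DESeq2, 3 members had an adjusted p under 0.05 and 0 reached both thresholds. In bulk RNA, fewer cells of a kind and less RNA in each cell cannot be told apart.

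**Figure D1:**
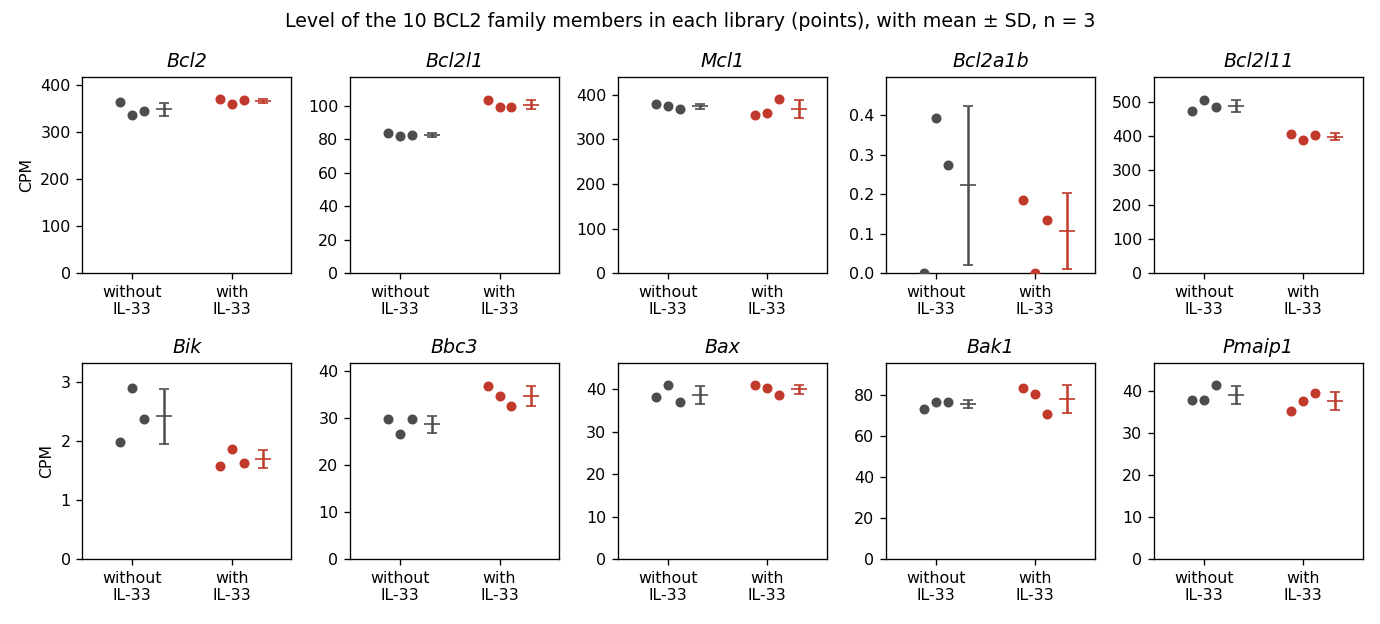
Level of each of the 10 members in CPM (counts per 1000000 of the scaled library, y axis from 0) in the 3 libraries without IL-33 (grey points) and the 3 with IL-33 (red points); the bar beside each group is its mean ± SD (n = 3). The red points lie above the grey ones for Bcl2l1 and Bbc3 and below them for Bcl2l11 and Bik, and the groups overlap in the other panels.

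Beside these values, the libraries held RNA of T cell genes, with Cd3e at 300.0 ± 12.9 CPM without IL-33 and 306 ± 7.49 CPM with it (mean ± SD, n = 3 per group). Of 8 T cell markers, 1 was called higher and 2 lower (37.5%, beside 27.5% of all genes tested). Cd3g rose (log2 fold change 0.13, adjusted p 0.0336 by edgeR's quasi-likelihood test). Lck and Cd5 fell (log2 fold changes -0.17 and -0.43, adjusted p 2.19e-05 and 0.0289, same fit). Cd4 was at 0.934 and 0.373 CPM, from 21, 22 and 16 counts without IL-33 and 11, 8 and 5 with it. At these low counts it was called lower (log2 fold change -1.31, adjusted p 0.0233 by edgeR's quasi-likelihood test). Cd8a, one of the genes whose protein the sort selected against, stood at 545 ± 13.6 CPM without IL-33 and fell to 400.2 ± 9.15 CPM with it (mean ± SD, n = 3 per group; log2 fold change -0.45, adjusted p 2.38e-26 by edgeR's quasi-likelihood test), and the summed level of the 3 CD4 and CD8 genes ranged from 544 to 573 CPM and from 411 to 428 CPM. Nearly all of this sum was Cd8a, and Cd8b1 rose from 9.68 to 16.3 CPM (log2 fold change 0.75, adjusted p 6.16e-08, same fit). Of 8 dendritic cell markers, 6 were in the table, with a summed level of 69.7 to 74.2 CPM without IL-33 and 44.1 to 51.2 CPM with it. Most of this was Itgax, which fell from 54.6 to 26.0 CPM and which activated T cells can also express. Batf3 of the same list rose from 1.51 to 3.68 CPM (log2 fold change 1.28, adjusted p 3.99e-05 by edgeR's quasi-likelihood test), Zbtb46, Xcr1 and H2-DMb2 did not pass the test, and Clec9a and Cd209a were not in the table. The NK cell markers summed to 405 to 408 CPM without IL-33 and 373 to 393 CPM with it, most of it Eomes, which did not pass the test. Klrb1c, which encodes NK1.1, another protein the sort selected against, fell from 33.5 to 25.6 CPM (adjusted p 7.14e-06 by edgeR's quasi-likelihood test). B cell, mast cell or basophil and macrophage markers each summed to at most 35.9 CPM in any library. Of these, Cpa3 fell from 10.9 to 7.10 CPM (log2 fold change -0.62, adjusted p 8.34e-05 by edgeR's quasi-likelihood test). Cd68, most of the macrophage sum, rose from 29.4 to 33.6 CPM (log2 fold change 0.19, adjusted p 0.0256, same fit). The other tested genes of these lists did not pass the test. The part of these cells in the results below was not tested.

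Among the survival members, Bcl2l1 (ENSMUSG00000007659, chr2:152780668-152831728 in GRCm38, minus strand) was the one that changed. It held 1778, 1661 and 1803 counts in the libraries without IL-33, and 2230, 2076 and 2201 counts in those with it. No library without IL-33 reached the lowest one with it. The level rose from 82.6 ± 1.05 to 101 ± 2.69 CPM (mean ± SD, n = 3 per group). The log2 fold change was 0.28 with a standard error of 0.042 and an adjusted p of 1.57e-08 (edgeR's quasi-likelihood test), and it stayed between 0.26 and 0.30 in the other fits. BCL-XL is the long product of Bcl2l1, and a shorter splice form that favours death comes from the same gene. Counts per gene do not separate these forms.

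Bcl2 had higher counts than Bcl2l1 in every library, with 7698, 6842 and 7536 counts without IL-33 and 7943, 7545 and 8180 with it. The highest library without IL-33 lay within the range of the libraries with it, at 363 CPM beside 360.0 to 369 CPM. The group means were 348 ± 13.4 and 366 ± 5.17 CPM (mean ± SD, n = 3 per group), a log2 fold change of 0.07 with a 95% interval of 0.013 to 0.13 and an adjusted p of 0.0606 (edgeR's quasi-likelihood test). This gene stood near the threshold. Of 13 other fits 2 called it, limma-voom (adjusted p 0.0477) and the fit without control replicate 1 (log2 fold change 0.10, adjusted p 0.00862). The other 11 did not, with an adjusted p of up to 0.318 and a log2 fold change of 0.05 without control replicate 2. The upper end of this interval, 0.13, is a rise of 1.10-fold, and it reflects only the spread between these libraries. Bcl2 shares 558 of its 9157 exon bases with D630008O14Rik on the other strand, and whether counting used the strand is not stated.

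Mcl1 was the survival gene with the highest level per length. It had 8043, 7631 and 8096 counts without IL-33 and 7627, 7525 and 8713 with it. The third library with IL-33 was the highest of all 6 in CPM and its 2 companions were the lowest. The means were 375 ± 4.82 and 369 ± 20.5 CPM (mean ± SD, n = 3 per group), with a log2 fold change of -0.02, a 95% interval of -0.085 to 0.038 and an adjusted p of 0.625 (edgeR's quasi-likelihood test). MCL1 is a protein of rapid turnover, and its amount was not measured here.

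Bcl2a1b was hardly detected, and its reads are hard to assign. It had 0, 8 and 6 counts without IL-33 and 4, 0 and 3 with it. A count of 0 allows a level of up to 0.142 CPM (3 counts) in each of the libraries concerned, by counting error only. Mice carry several copies of the A1 gene on chromosome 9. The coding parts of Bcl2a1a, Bcl2a1b and Bcl2a1d are all 519 bases long, and Bcl2a1b differs from Bcl2a1d at 6 of them and from Bcl2a1a at 11. The first 90 coding bases from GENCODE M21 (GRCm38) are shown for the 3 copies as an example of how alike they are. This stretch holds 2 of the 6 differences between Bcl2a1b and Bcl2a1d and 5 of the 11 between Bcl2a1b and Bcl2a1a. Capitals mark the 6 positions at which the copies are not all alike.
Bcl2a1a, chr9:88957051-88957140, plus strand: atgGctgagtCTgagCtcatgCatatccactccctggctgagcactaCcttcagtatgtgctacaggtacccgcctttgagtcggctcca
Bcl2a1b, chr9:89199360-89199449, plus strand: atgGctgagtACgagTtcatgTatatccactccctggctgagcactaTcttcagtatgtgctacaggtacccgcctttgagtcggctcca
Bcl2a1d, chr9:88731630-88731719, minus strand: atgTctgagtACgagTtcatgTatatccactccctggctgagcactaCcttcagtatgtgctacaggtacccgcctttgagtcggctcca
Beyond the last capital the copies are identical for the rest of this stretch. Over the transcript, 57.6% of all 50-base stretches of Bcl2a1b occur without change in another copy, and the share is 79.5% for Bcl2a1d and 69.0% for Bcl2a1a. Bcl2a1b also shares 401 exon bases with Gm29094 on the same strand. How reads that match several copies were counted is not stated, so the value of any single copy is uncertain.

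Nearly all counts of the A1 genes were listed under Bcl2a1d, with 936, 874 and 940 counts without IL-33 and 984, 869 and 842 with it. The groups overlapped, at 43.3 ± 0.666 and 41.7 ± 3.94 CPM (mean ± SD, n = 3 per group), with a log2 fold change of -0.06 and an adjusted p of 0.554 (edgeR's quasi-likelihood test). Bcl2a1a had 10 to 14 counts in each library (adjusted p 0.771 in the same fit). Bcl2a1c had 5 counts in 1 library without IL-33 and 0 in the others. With the 4 copies summed as 1 gene, each control library held 950, 899 or 959 counts and each treated one 998, 881 or 857. The sum gave a log2 fold change of -0.06, with a 95% interval of -0.19 to 0.057 and an adjusted p of 0.483 (edgeR's quasi-likelihood test). For the counts listed under the A1 genes, therefore, no difference was detected, and the interval leaves out a change of 1.5-fold either way. It holds for these libraries and these counts only, since reads that match several copies may be missing from the sum.

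Of the BH3-only members, Bcl2l11 (BIM; ENSMUSG00000027381, chr2:128126038-128162547 in GRCm38, plus strand) had the most counts and was the only member called lower. It had 10052, 10296 and 10623 counts without IL-33 and 8764, 8126 and 8934 with it. Every library with IL-33 lay below every library without it. The level went from 488 ± 16.8 to 399 ± 10.3 CPM (mean ± SD, n = 3 per group). The log2 fold change was -0.29 with a standard error of 0.029 and an adjusted p of 3.78e-15 (edgeR's quasi-likelihood test), and it ran from -0.31 to -0.26 in the other fits. BIM is made in several splice forms that differ in how strongly they kill, and these are counted together here.

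Bbc3 (PUMA; ENSMUSG00000002083, chr7:16308393-16318205, plus strand) went the other way. It had 632, 542 and 655 counts without IL-33 and 794, 730 and 726 with it, and the groups did not overlap. The mean rose from 28.8 ± 1.83 to 34.8 ± 2.12 CPM (mean ± SD, n = 3 per group). The log2 fold change was 0.27 with a standard error of 0.070 and an adjusted p of 0.00115 (edgeR's quasi-likelihood test), and from 0.22 to 0.32 in the other fits. So a death gene, Bbc3, rose in the same libraries in which another, Bcl2l11, fell, and by a similar amount on the log2 scale from a lower level.

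Pmaip1 and Bik did not pass the test. Pmaip1 (NOXA, a partner of MCL1) had 804, 773 and 911 counts without IL-33 and 761, 791 and 882 with it, with a log2 fold change of -0.06, a 95% interval of -0.19 to 0.068 and an adjusted p of 0.546 (edgeR's quasi-likelihood test). Its groups overlapped throughout. Bik had 42, 59 and 52 counts without IL-33 and 34, 39 and 36 with it. The groups did not overlap, at 2.42 ± 0.464 and 1.69 ± 0.151 CPM (mean ± SD, n = 3 per group), and the log2 fold change of -0.52 was the largest in size among the members. At these counts its standard error was 0.26 and the adjusted p was 0.126 in the same fit, and no other fit brought it under 0.05. A difference in Bik could not be settled at this depth.

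The effectors Bax and Bak1 differed little between the groups. Bax had 810, 835 and 810 counts without IL-33 and 883, 844 and 862 with it, a log2 fold change of 0.05 with a 95% interval of -0.077 to 0.17 (adjusted p 0.624, edgeR's quasi-likelihood test). Bak1 had 1559, 1562 and 1681 counts without IL-33 and 1799, 1693 and 1573 with it, a log2 fold change of 0.05 with a 95% interval of -0.042 to 0.14 (adjusted p 0.467, same fit). In both the groups overlapped. For Bak1 the library with the lowest CPM of all 6 and that with the highest were both treated with IL-33. Bax shares 192 exon bases with Gm45808 on the same strand, and Bak1 shares 437 with Ggnbp1 on the other.

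**Figure D2:**
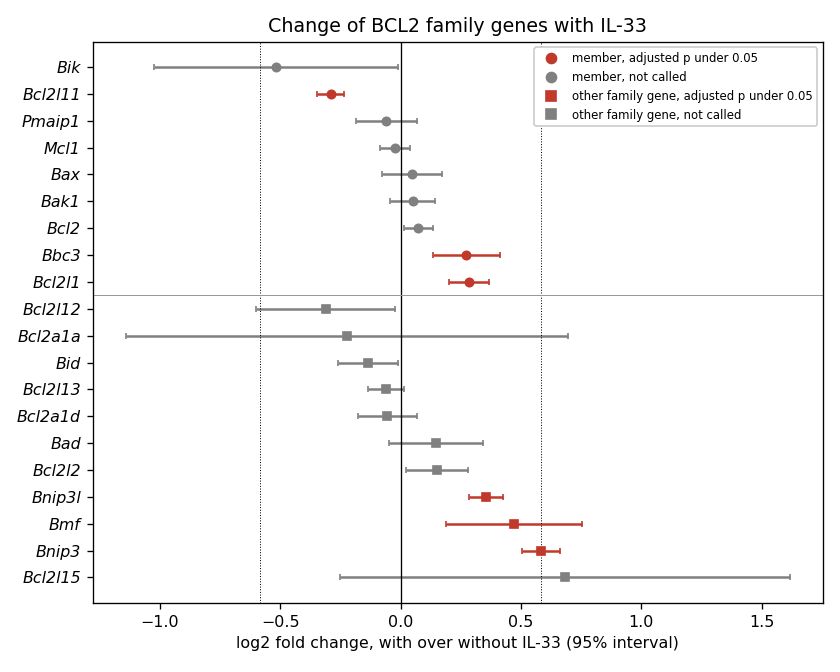
Log2 fold change with over without IL-33 (x axis) with its 95% interval for the 9 tested members (circles, above the line) and the 11 other tested genes of the family (squares); red marks an adjusted p under 0.05 and the dotted lines the fold threshold of 1.5. Bcl2l11 is the one red symbol left of 0, and Bcl2l1, Bbc3, Bnip3l, Bmf and Bnip3 are right of 0; the intervals of Bik, Bcl2a1a and Bcl2l15 are wide.

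To compare genes with each other, levels were set per length, as CPM per kb of exon over all annotated transcripts. Without IL-33 the order of the members by mean was Mcl1 at 109.6, Bcl2l11 at 60.8, Bcl2 at 38.0, Bak1 at 31.4, Bax at 24.6, Bcl2l1 at 18.01, Pmaip1 at 14.3, Bbc3 at 13.5 and Bik at 1.52 CPM per kb. Mcl1 thus headed the survival genes and Bcl2l11 the death genes by RNA in these stimulated cells. The ranges of neighbours in this order did not overlap, except those of Pmaip1 and Bbc3. With IL-33 the same order held down to Bcl2l1, now at 21.9 CPM per kb, and Bbc3 at 16.4 stood above Pmaip1 at 13.8 CPM per kb, without overlap. These levels depend on the exon length, which counts bases of transcripts that the cells may not use.

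**Figure D3:**
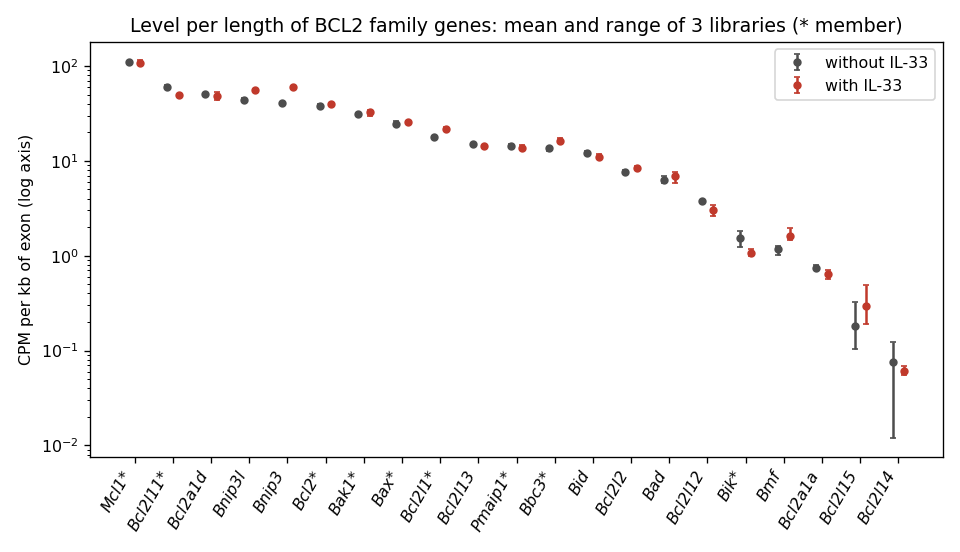
Level in CPM per kb of exon (y axis, log scale) of the members (marked *) and the other genes of the family that were above 0 in all 6 libraries, in order of the mean without IL-33; points are means and bars the lowest and highest of 3 libraries, without IL-33 in grey and with it in red. Mcl1 is highest in both groups, and the red points stand apart from the grey ones for, among others, Bcl2l11, Bnip3l, Bnip3, Bcl2l1 and Bbc3.

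Summed per length over the 9 tested members, the survival genes made up 52.4% to 54.2% of the level without IL-33 and 53.8% to 56.7% with it, which overlapped. Within the 6 death genes, Bcl2l11 made up 41.2% to 42.2% without IL-33 and 34.8% to 37.1% with it, which did not overlap. The survival share leaves out A1, since Bcl2a1b was not tested and Bcl2a1d is not a member. Bcl2a1d, with nearly all A1 counts, stood at 50.2 CPM per kb without IL-33 and 48.3 CPM per kb with it. These are shares of RNA level per length and not of protein.

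Ratios of a survival gene to a death gene within a library do not depend on how libraries are scaled, and 4 such ratios of counts were compared. The ratio of Bcl2l1 to Bcl2l11 was 0.177, 0.161 and 0.170 in control libraries and 0.254, 0.255 and 0.246 in those treated with IL-33. The ratio of Bcl2 to Bcl2l11 was 0.766, 0.665 and 0.709 in control libraries and 0.906, 0.929 and 0.916 in the treated ones. In both, the 2 groups did not overlap, and the libraries with IL-33 had the higher ratios. The log2 ratios differed by 0.58 and 0.36, each with an exact permutation p of 0.1 (two-sided), the smallest that 3 libraries against 3 allow, and of 0.2 when adjusted over the 4 ratios, so this design could not pass 0.05. Mcl1 to Pmaip1 (9.59 ± 0.610 and 9.80 ± 0.262; mean ± SD, n = 3 per group) and Bcl2 to Bax (9.00 ± 0.706 and 9.14 ± 0.303) overlapped between the groups, with exact permutation p-values of 0.6 and 0.9. Both ratios over Bcl2l11 share Bcl2l11, the member called lower, as their denominator and are not independent of each other. They restate the changes of the single genes given above and add no separate result. Bbc3, the death gene called higher, was in none of the 4 ratios. The ratios thus do not describe the balance of survival and death genes over all members.

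**Figure D4:**
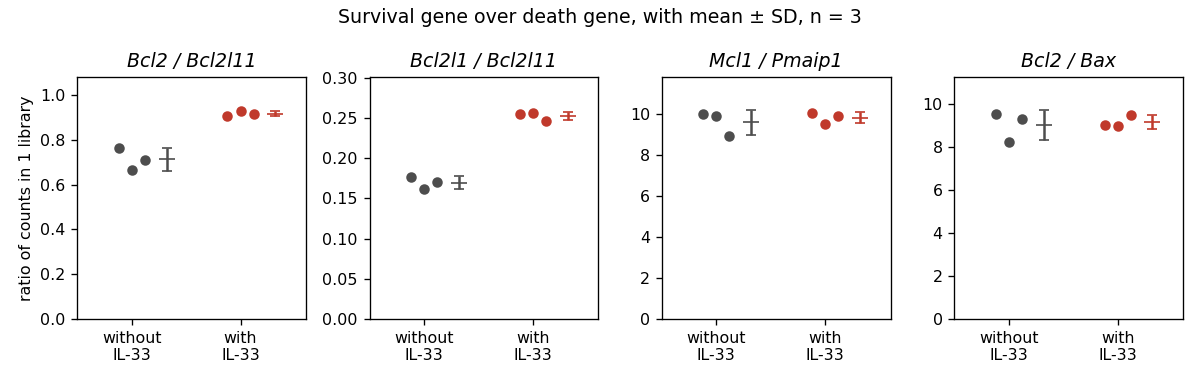
Ratio of the counts of a survival gene to those of a death gene (y axis from 0, no unit) in each library, without IL-33 in grey and with it in red, and the mean ± SD of each group (n = 3). The red points are above the grey ones for both ratios over Bcl2l11, and the groups overlap for Mcl1 over Pmaip1 and Bcl2 over Bax.

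The 3 called members were also compared by the sequence just before a transcript start. For Bcl2l11, Bbc3 and Bcl2l1, the 250 bases before 1 RefSeq start (GRCm38.p6) are given on the strand of the gene. Capitals mark TGTTTAC or its reverse complement, a core sequence bound by FOXO factors, which are known activators of Bcl2l11 and Bbc3. For Bcl2l11 and Bbc3 the window was chosen because it held this match, and their other windows held none. No window of Bcl2l1 held it, and the one at the annotated start of the gene was taken.
Bcl2l11, chr2:128125788-128126037, plus strand: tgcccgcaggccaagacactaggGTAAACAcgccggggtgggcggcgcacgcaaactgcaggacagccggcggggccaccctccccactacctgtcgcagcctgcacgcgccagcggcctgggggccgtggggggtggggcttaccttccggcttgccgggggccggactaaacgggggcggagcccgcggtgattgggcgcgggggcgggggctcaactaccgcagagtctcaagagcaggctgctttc
Bbc3, chr7:16310011-16310260, plus strand: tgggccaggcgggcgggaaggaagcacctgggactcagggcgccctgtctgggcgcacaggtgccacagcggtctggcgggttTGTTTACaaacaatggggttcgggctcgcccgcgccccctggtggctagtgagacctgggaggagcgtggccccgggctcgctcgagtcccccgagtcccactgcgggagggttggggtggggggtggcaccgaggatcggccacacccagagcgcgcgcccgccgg
Bcl2l1, chr2:152831729-152831978, minus strand: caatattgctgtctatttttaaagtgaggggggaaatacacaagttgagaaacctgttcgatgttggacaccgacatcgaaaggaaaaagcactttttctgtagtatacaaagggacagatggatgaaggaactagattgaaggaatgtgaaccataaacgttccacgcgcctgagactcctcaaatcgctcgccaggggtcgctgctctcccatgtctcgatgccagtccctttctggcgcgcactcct
The Bbc3 window lies inside the gene as GENCODE annotates it, before a later RefSeq start, and the other windows end at the start of the gene. The match stands 227 bases before the start in Bcl2l11 and 167 bases before it in Bbc3. RefSeq windows were matched for 8 of the 10 members, with 13 windows in all, and 2 of these windows held the FOXO letters on either strand. Among all 32851 windows of this length 3.17% did. The letters GGG and CC with 5 bases of any kind between them, a loose form of the NF-κB site that can match itself at overlapping positions, were in 10 of the 13 windows and in 45.8% of all windows. The STAT letters TTCNNNGAA were in 0 of the 13 and in 7.02% of all. G and C made up 72.0% of the Bcl2l11 window, 72.4% of the Bbc3 window and 47.6% of the Bcl2l1 window. Members with several windows count more than once, and 2 of the Bbc3 windows overlap in sequence, so the 13 windows are not independent. A match is a run of letters and not a bound site.

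Outside the 10 members, 16 further genes of the family were listed by their known roles. Of these, 14 were in the table (Bcl2l10 and Hrk were not) and 11 were tested. With IL-33, 3 rose, 0 fell and 8 did not pass the test, with a median log2 fold change of 0.15. That is 27.3% called, the share of all genes tested being 27.5%. By edgeR 6 of the 11 had an unadjusted p under 0.05, and DESeq2 also called 3.

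Bnip3 and Bnip3l, which encode proteins of the outer mitochondrial membrane that mark mitochondria for removal and are known to rise in low oxygen, changed most clearly. Bnip3 had 1934, 1824 and 2061 counts without IL-33 and 2892, 2901 and 3089 with it. It rose from 91.6 ± 2.19 to 137 ± 2.45 CPM (mean ± SD, n = 3 per group), a log2 fold change of 0.58 that lay just under the fold threshold, with an adjusted p of 3.59e-24 (edgeR's quasi-likelihood test). Its groups were far apart, with no library in between. Bnip3l rose from 169 ± 9.20 to 216 ± 3.79 CPM (mean ± SD, n = 3 per group), a log2 fold change of 0.35 with an adjusted p of 8.23e-15 in the same fit. Per length, Bnip3 at 60.6 and Bnip3l at 56.1 CPM per kb stood above Bcl2l11 at 49.7 CPM per kb with IL-33, while without IL-33 they stood below it.

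Bmf, a BH3-only gene, was low, with 114, 130 and 146 counts without IL-33 and 219, 163 and 169 with it. It rose from 6.14 ± 0.682 to 8.52 ± 1.44 CPM (mean ± SD, n = 3 per group), a log2 fold change of 0.47 with an adjusted p of 0.00684 (edgeR's quasi-likelihood test). The first library with IL-33 was the highest, and the call did not hold without it (adjusted p 0.138) or without control replicate 1 (adjusted p 0.0583). The remaining 8 tested genes, among them Bcl2l2, Bid and Bad, had adjusted p-values of at least 0.0749 in the same fit.

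The steps after the membrane opens were described with 12 genes of the mitochondrial death pathway. With IL-33, 4 rose and 0 fell (33.3%, beside 27.5% of all genes tested), with a median log2 fold change of 0.04, and 8 did not pass the test. Apaf1, the scaffold of the apoptosome, rose from 164 ± 4.92 to 191 ± 0.406 CPM (mean ± SD, n = 3 per group; log2 fold change 0.22, adjusted p 3.03e-07, edgeR's quasi-likelihood test). Vdac3, Vdac1 and Vdac2, which encode channels of the outer membrane, had log2 fold changes of 0.13, 0.11 and 0.11. These 3 calls were near the threshold. By DESeq2 Apaf1 and Vdac2 passed, and by library totals only or without IL-33 replicate 2 Apaf1 was the one of the 4 that passed. Htra2, a protease released from mitochondria, had a log2 fold change of -0.28 and an adjusted p of 0.0557, and was called lower in 5 of 13 other fits, among them library totals only (0.0382) and without IL-33 replicate 2 (0.0128). Htra2 shares 753 exon bases with Aup1 on the other strand. With 1 library left out, the adjusted p of Vdac3 was 0.116 (control replicate 1), 0.0711 (IL-33 replicate 2) and 0.113 (IL-33 replicate 3), that of Vdac1 0.171 (control replicate 2) and 0.250 (IL-33 replicate 2), and that of Vdac2 0.149 (control replicate 1), 0.0512 (IL-33 replicate 1) and 0.0633 (IL-33 replicate 2), all by edgeR.

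The p53 pathway was followed since p53 is known to activate Bbc3, Pmaip1 and Bax. Of 25 listed genes 21 were tested, and 6 rose and 2 fell (38.1%, beside 27.5% of all genes tested), with a median log2 fold change of 0.04. Trp53 itself fell from 133 ± 0.237 to 107 ± 1.29 CPM (mean ± SD, n = 3 per group), a log2 fold change of -0.31 with an adjusted p of 9.32e-11 (edgeR's quasi-likelihood test). Pidd1, a p53 target with a death domain, fell as well (log2 fold change -0.38, adjusted p 1.11e-05, same fit). The other 6 called genes of the list rose. Cdkn1a, the cell cycle inhibitor p21, rose from 305 ± 5.54 to 401 ± 10.7 CPM (mean ± SD, n = 3 per group; log2 fold change 0.40, adjusted p 1.83e-21). Mdm2, the ligase that degrades p53, rose by 0.33 on the log2 scale, Sesn1 by 0.35, Ccng1 by 0.20, Polk by 0.16 and Trp53inp1 by 0.09. The call of Trp53inp1 did not hold by library totals only, nor without control replicate 1 (adjusted p 0.0614), control replicate 2 (0.0796) or IL-33 replicate 3 (0.130). Of the p53 targets among the members, Bbc3 rose while Bax and Pmaip1 did not pass the test.

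Of 18 transcription regulators known to act on genes of the family, all were tested. With IL-33, 7 rose and 3 fell (55.6%, beside 27.5% of all genes tested), with a median log2 fold change of 0.03. This list, too, was written with earlier results of these data known, so its share is no test of such regulators. Tsc22d3 (GILZ), a gene induced by glucocorticoids whose product is known to hold back FOXO3, was the one gene past both thresholds. It had 752, 697 and 778 counts without IL-33 and 1196, 1130 and 1254 with it, and rose from 35.1 ± 0.674 to 55.3 ± 1.30 CPM (mean ± SD, n = 3 per group; log2 fold change 0.66, adjusted p 2.11e-17, edgeR's quasi-likelihood test). Foxo1 rose by 0.36 and Foxo3 by 0.32 on the log2 scale (adjusted p 6.53e-12 and 1.85e-09, same fit). Stat5b and Stat5a, which carry signals of IL-2 family cytokines to Bcl2 and Bcl2l1, rose by 0.41 and 0.18 on the log2 scale. Ddit3 and Atf4, of the stress response, rose by 0.26 and 0.17. Runx1, Rel and Ets1 fell, with log2 fold changes of -0.42, -0.34 and -0.15. Rel encodes c-Rel, an NF-κB subunit known to drive Bcl2l1 and the A1 genes. Nfkb1 and Rela, the other NF-κB subunit genes of the list, did not pass the test. Their log2 fold changes were 0.01 and -0.07, with adjusted p 0.797 and 0.180 (edgeR's quasi-likelihood test).

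The last list held 24 regulators of the proteins, such as kinases, ligases and binding partners. With IL-33, 5 rose and 2 fell (29.2%, near the 27.5% of all genes tested), with a median log2 fold change of 0.03. Pim3, a kinase that phosphorylates BAD, rose from 191 ± 11.0 to 246 ± 11.6 CPM (mean ± SD, n = 3 per group; log2 fold change 0.36, adjusted p 1.38e-12, edgeR's quasi-likelihood test). Fbxw7, which takes part in the destruction of MCL1, rose by 0.27 on the log2 scale, and Mapk3 (ERK1), a kinase of BIM, rose by 0.22. Ywhae (a 14-3-3 protein) and Pim1 rose by 0.10 and 0.08, and Akt1 and Pim2 fell, with log2 fold changes of -0.10 and -0.09. Each of these last 4 calls was lost when any of 2 or 3 libraries was left out (adjusted p by edgeR). Ywhae was not called without control replicate 2 (0.0579) or IL-33 replicate 1 (0.0654), and Pim1 without control replicate 2 (0.130), control replicate 3 (0.0987) or IL-33 replicate 3 (0.230). With all 6 libraries Pim1 was also not called by library totals only (0.0858) or by DESeq2 (0.0517). Akt1 was not called without control replicate 1 (0.0578), control replicate 2 (0.0919) or IL-33 replicate 2 (0.149), and Pim2 without control replicate 1 (0.0905) or, among the libraries with IL-33, without replicate 2 (0.185) or 3 (0.0547). Among the genes given here outside the members, exons of Bid, Bad, Bnip3, Vdac2, Cdkn1a, Stat5a, Ddit3, Foxo1, Runx1, Pim1, Cd3e and Eomes also overlap those of a gene on the other strand, whose reads cannot be told apart if strand was not used in counting.

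**Figure D5:**
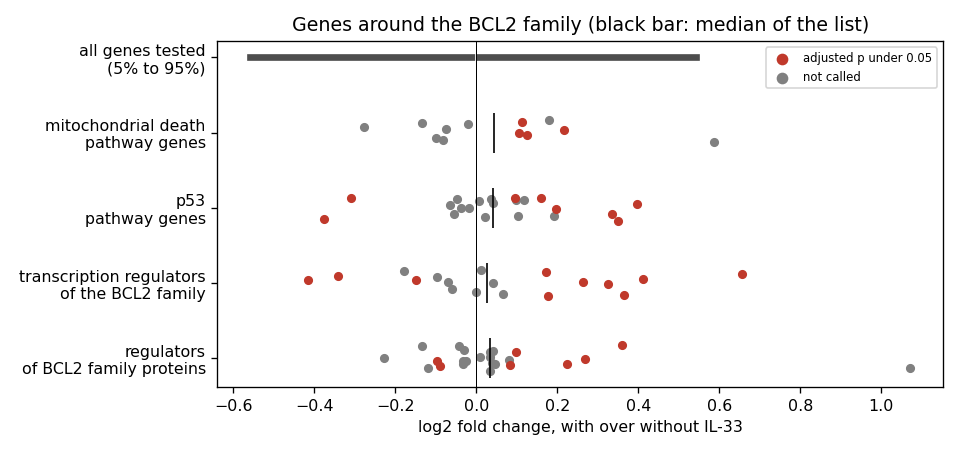
Log2 fold change with over without IL-33 (x axis) of each tested gene in 4 lists around the BCL2 family, red where the adjusted p was under 0.05 and grey otherwise; black bars are the medians of the lists and the thick line spans the 5th to 95th percentile of all genes tested, -0.56 to 0.54. The medians lie from 0.03 to 0.04, and red points lie on both sides of 0 except in the mitochondrial death pathway.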

How the data were processed

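RNA was sequenced from 6 libraries of DNT cells. For every library the authors deposited the number of reads on each gene as raw counts, and 1 column of signal, an average over the 6 libraries after scaling by size factors, which was used only as a check of the counts and not as a result. Library kits differ between the sources, with TruSeq in the sample labels and NEBNext Ultra in the paper. The submitters' processing notes name Bowtie 0.12.2 and mm8, without saying for which step, and no source used here names the counting program or says if strand was used. Ensembl identifiers were matched to GENCODE M21 (GRCm38) for 26086 of 26128 genes, and positions and exon lengths come from there. Symbols come from a separate reference list of gene names, or from GENCODE where that list had none. Promoter windows are those of RefSeq (GRCm38.p6), and coding sequences of the Bcl2a1 genes are those of GENCODE.

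Library totals ran from 20256342 to 22336050 counts, so that 3 counts, taken as the limit of a count of 0, were 0.134 to 0.148 CPM. Genes were filtered with filterByExpr (minimum count 10, minimum total 15), which removed 0.110% of the counts, scaled by TMM and tested with edgeR's quasi-likelihood test (robust, no covariates, two-sided), and p-values were adjusted over all 14671 genes by the method of Benjamini and Hochberg. CPM values are per 1000000 counts of the TMM-scaled library. The thresholds of 0.05 and of 1.5-fold are those of the study. The biological coefficient of variation was 0.0468. Replicates differed beyond sampling noise in every pair (chi-square per gene 2.64 to 3.67). The first principal component (42.9% of the variance) separated the groups. Ratios were tested with an exact permutation test. The fit was tested on simulated data. The tools were edgeR 4.0.16, DESeq2 1.42.0 and limma 3.58.1 in R 4.3.3.

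The members and lists were chosen with earlier results of these data known. Named were all members, other family genes with an adjusted p under 0.05 and the Bcl2a1 copies, and from each other list the genes past both thresholds and the 3 largest changes among called genes with a mean of at least 1 CPM. Vdac2, Htra2, Trp53, Mdm2, Ccng1, Polk, Trp53inp1, Foxo1, Foxo3, Stat5a, Ddit3, Atf4, Rel, Ets1, Pim1, Ywhae, Akt1 and Pim2 were named after their values were seen, most of them to complete the called genes of their lists. Bcl2l2, Bid, Bad, Nfkb1 and Rela were also named after their values were seen. Alternatives were DESeq2, limma-voom, other scalings and filters, a block for the replicate number, fits without each library in turn, and a test against the fold threshold.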

Additional observations from a re-analysis of the deposited data

How the results depend on the processing

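Across 13 other fits (other tests, scalings, filters, the block, and each library left out), Bcl2l1, Bcl2l11 and Bbc3 kept their direction and stayed under an adjusted p of 0.05. Asking for both thresholds left 714 genes called and a test against the 1.5-fold threshold left 113, with 0 members, 0 other family genes, 0 mitochondrial death pathway genes, 0 p53 pathway genes and 0 regulators of the proteins under either rule, and 1 or 0 transcription regulators respectively. DESeq2 and library totals only each gave 2 mitochondrial death pathway genes in place of 4 (Apaf1 and Vdac2, and Apaf1 and Htra2, respectively). Leaving out 1 library gave 3366 to 3664 genes in place of 4036, 3 to 4 members, 2 to 4 other family genes, 2 to 4 mitochondrial death pathway genes (2 without IL-33 replicate 2), 7 to 9 p53 pathway genes, 10 transcription regulators and 5 to 6 regulators of the proteins. Fewer samples enter these last fits. The difference in log2 ratio then ran from -0.020 to 0.066 for Mcl1 to Pmaip1 (below 0 without control replicate 3) and from -0.041 to 0.066 for Bcl2 to Bax (-0.041 without control replicate 2, -0.0023 without IL-33 replicate 3), and stayed above 0 for both ratios over Bcl2l11. Log2 fold changes ran from -0.068 to 0.0065 for Mcl1 (above 0 without IL-33 replicate 1) and from -0.13 to 0.011 for Bcl2a1d (above 0 without IL-33 replicate 3), neither of them called. The cause of these changes was not tested.

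Replicate numbers are shared by the groups in the labels, but libraries with the same number did not deviate together (correlations of 0.0116, 0.0032 and 0.0107), so they were not taken as pairs. With the replicate number as a block, 3798 genes, 3 members, 3 other family genes, 4 mitochondrial death pathway genes and 8 p53 pathway genes were called. So were 10 transcription regulators and 8 regulators of the proteins, in place of 7 such regulators without the block. Among the named genes the block ended the call of Pim1 (adjusted p 0.0586). Bik and Bcl2a1a had standard errors of 0.26 and 0.46 on the log2 scale, beside 0.030 for Bcl2.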
